A study of Arabidopsis thaliana with 9 samples.

Results

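The NPF family of Arabidopsis thaliana, also called NRT1/PTR, was examined gene by gene in cotyledons induced to form companion cells to different degrees. The family was taken as 52 loci in subfamilies NPF1 to NPF8. A member was kept where a probe set of the array named that gene alone, and its brightest such probe set over the 9 arrays stood for it. This left 36 of 52 members, among 16548 genes and 38408 probe sets in all.

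The missing members were not a random part of the family. The probe annotation used here names 86.3% of the protein-coding genes that the reference gene table knows by locus tag only, and 16.8% of those with a symbol of their own. Accordingly 33 of the 36 family members known by locus tag only were measured, and 3 of the 16 members with a symbol. NPF5.9 had only a probe set shared with another gene, and 15 had no named probe set. Those without a value are NPF1.1, NPF1.2, NPF2.9, NPF2.12 (NRT1.6), NPF2.13 (NRT1.7), NPF4.6 (NRT1.2), NPF5.2 (PTR3), NPF5.9, NPF6.3 (NRT1.1), NPF7.2 (NRT1.8), NPF7.3 (NRT1.5) and all 5 members of NPF8, the subfamily that holds the best known dipeptide transporters. The main nitrate sensor of roots, NPF6.3, and the xylem-side nitrate transporters NPF7.2 and NPF7.3 were therefore not analysed here. By subfamily, 11 of 14 members were measured in NPF2, 1 of 1 in NPF3, 6 of 7 in NPF4, 14 of 16 in NPF5, 3 of 4 in NPF6 and 1 of 3 in NPF7. Counts below hold for the 36 measured members and not for the family.

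NPF proteins are membrane transporters of the major facilitator type that mostly couple uptake to protons. Different members carry nitrate, short peptides, glucosinolates, chloride or hormones such as abscisic acid and gibberellin. In leaves they are known for moving nitrate and glucosinolates between storage cells and veins, and the companion cells of the phloem, which load the sieve elements, express several of them.

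The samples were cotyledons of 6-day-old Col-0 seedlings, wild type in all groups and grown under continuous light. The 3 groups of 3 arrays were compared. The CC-S group is labelled as a strong induction of companion cells, CC-M as a moderate one, and VISUAL as a culture without companion cell induction. All 9 samples carry the same protocol text. It describes 48 h in VISUAL medium with the auxin 2,4-D at 1.25 mg/L, the cytokinin kinetin at 0.25 mg/L and the GSK3 inhibitor bikinin at 10 µM, then transfer to companion cell induction medium and sampling 96 h after that induction. The labels do not state what set the medium of one group apart from another. The labels number the replicates 3 to 5 without saying if each was its own culture, and every p-value below therefore reflects the spread among these arrays alone, which may be technical.

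On the first principal component of all probe sets, which held 42.3% of the variance, the CC-S arrays lay at 54.0, 55.5 and 33.8, the CC-M arrays at 26.0, 17.0 and 11.5, and the VISUAL arrays at -70.0, -54.9 and -73.0. CC-S replicate 5 lay nearest to the CC-M arrays. Of the markers of companion cells, 1 of 9 was measured: SAPL stood at 8.42 to 8.86 on the log2 signal scale in CC-S, 7.43 to 7.99 in CC-M and 4.87 to 6.04 in VISUAL, and rose by 3.04 and 2.12 in CC-S and CC-M over VISUAL (limma, adjusted p = 0.000222 and 0.00239). None of the 4 sieve element markers was measured. Of the xylem vessel markers, 3 of 10 were measured, and IRX15 and IRX10 fell in both inductions. Over VISUAL, IRX15 differed by -1.91 in CC-S (adjusted p = 0.00586) and -1.51 in CC-M (adjusted p = 0.0268), and IRX10 by -1.03 in CC-S (adjusted p = 0.0125) and -0.89 in CC-M (adjusted p = 0.0353). Both CC-M calls were lost without CC-M replicate 3 or 4 or VISUAL replicate 3 (adjusted p up to 0.0967 for IRX15 and 0.116 for IRX10). The IRX10 call in CC-M was also lost without VISUAL replicate 5 (0.0687) or without the limma trend on mean signal (0.0532). That in CC-S was lost without CC-S replicate 4 (0.0528). IRX15-L differed by -0.88 in CC-S and by -0.65 in CC-M without a call. It passed in CC-S without CC-S replicate 5 (0.0378) and with the replicate numbers as a block (0.0166). The summed log2 signal of the 3 was 21.8 to 24.3 in CC-S, 22.2 to 25.0 in CC-M and 25.9 to 27.6 in VISUAL. The 3 of 8 mesophyll markers measured summed to 27.4 to 27.7 in CC-S, 28.0 to 28.2 in CC-M and 27.2 to 28.4 in VISUAL. The 3 of 5 epidermis and stomata markers summed to 14.0 to 14.5 in CC-S, 14.4 to 14.6 in CC-M and 14.3 to 15.7 in VISUAL. No mesophyll or epidermis marker passed the test with the settings used for the counts. In CC-S over VISUAL the stomatal gene FAMA differed by -0.46 (adjusted p = 0.0640) and passed in 7 of 19 other settings, among them without CC-M replicate 3 (0.0336) or VISUAL replicate 3 (0.0453). LHCB4.1 passed in CC-S over VISUAL without VISUAL replicate 5 (0.0275), and RCA in CC-M over VISUAL in 1 other setting (0.0414). In whole cotyledons, fewer cells of a type and less RNA per cell cannot be told apart. Whether any shift in cell types has a part in the NPF results was not tested.

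In strongly induced cotyledons, 5 NPF genes rose and 1 fell relative to VISUAL. The glucosinolate importer gene GTR2, the nitrate transporter gene NPF6.2, NPF4.3, NPF4.4 and NPF5.8 were higher, by 2.01-fold to 9.42-fold, and NPF2.5 was lower by 2.06-fold. A gene was called at an adjusted p under 0.05 from limma, with Benjamini-Hochberg adjustment over all 38408 probe sets. The 6 of 36 called are 16.7%, against 19.2% of all probe sets and 20.2% of all genes measured, so the members were called about as often as genes at large. The 5 higher stand beside 10.2% of genes called higher and the 1 lower beside 10.0% called lower. A change of at least 2-fold was seen in 6 of 36 members, or 16.7%, against 6.95% of all genes. The median difference over the 36 members was 0.09, against -0.00463 over all genes. The arrays of the groups did not overlap for 13 members (9 higher and 4 lower in CC-S), or 36.1%, against 34.7% of genes (17.3% higher and 17.4% lower).

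In moderately induced cotyledons, 5 NPF genes again rose and 1 fell relative to VISUAL. GTR2, NPF6.2 and NPF4.3 were higher and NPF2.5 lower in this comparison too. NPF6.1 and NPF5.7 were called here and not in CC-S, and NPF4.4 and NPF5.8 were not called here. The 6 of 36 called are 16.7%, against 11.6% of all probe sets and 12.0% of all genes (6.31% higher and 5.66% lower). The median difference was 0.23, against -0.01 over all genes. The groups did not overlap for 12 members (11 higher and 1 lower in CC-M), or 33.3%, against 28.7% of genes (14.2% higher and 14.5% lower). Both comparisons use the same 3 VISUAL arrays, so they are not independent of each other.

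**Figure D1:**
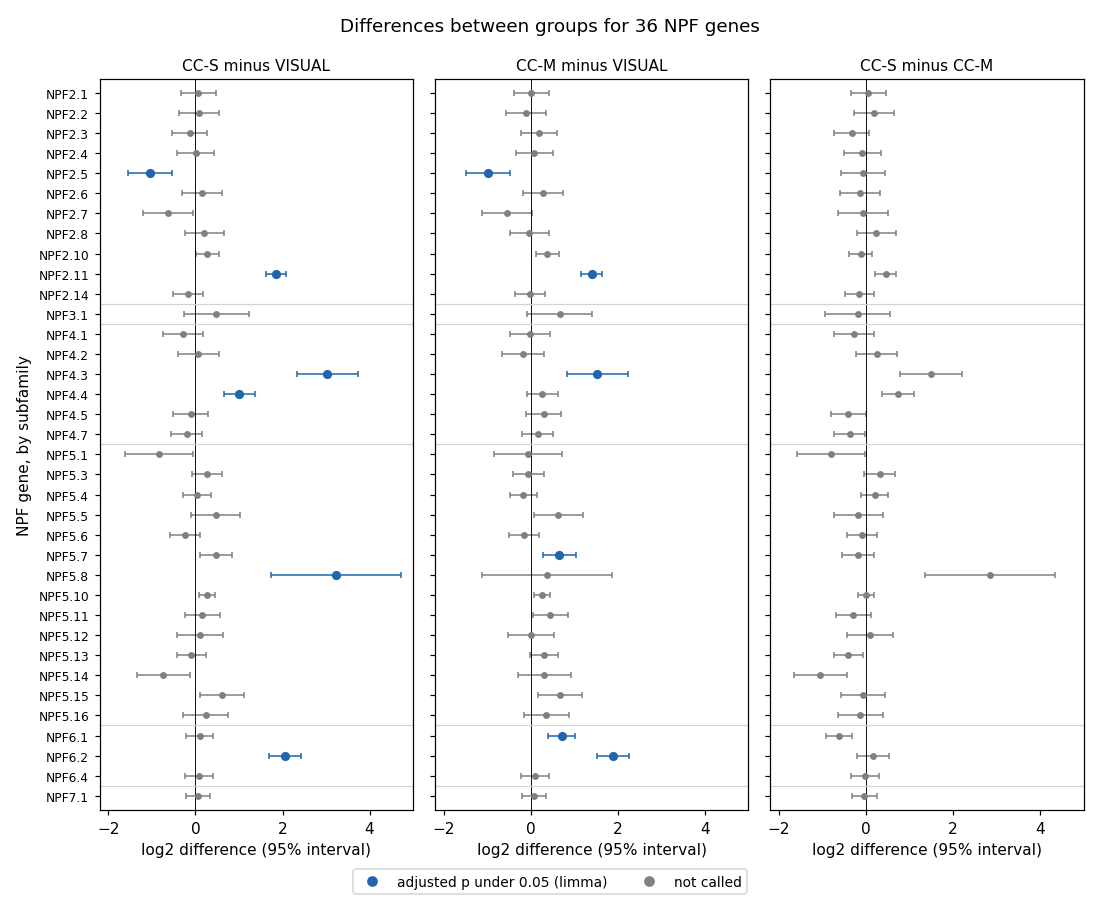
Log2 difference of each of the 36 measured NPF genes in CC-S minus VISUAL, CC-M minus VISUAL and CC-S minus CC-M, with its 95% interval. Genes run down the page by subfamily, and colour marks those called at an adjusted p under 0.05 (limma). Most genes sit near 0, while NPF4.3 and NPF5.8 lie at 3.03 and 3.24 in CC-S minus VISUAL and no gene is marked in CC-S minus CC-M.

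GTR2 (NPF2.11, AT5G62680) takes up glucosinolates and loads them into the phloem together with GTR1 (NPF2.10, AT3G47960). The GTR2 log2 signal was 10.83, 10.86 and 10.89 in CC-S, 10.39, 10.43 and 10.41 in CC-M, and 8.75, 9.11 and 9.18 in VISUAL. The groups did not overlap in any pair, and the SD was 0.03 in CC-S, 0.02 in CC-M and 0.23 in VISUAL. GTR2 rose by 1.85 ± 0.10 (SE) in CC-S over VISUAL, which is 3.61-fold (adjusted p = 2.27e-05), and by 1.4 in CC-M, which is 2.64-fold (adjusted p = 0.00017).

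GTR1 did not follow at that size. Its log2 signal was 7.03, 7.14 and 6.98 in CC-S, 7.07, 7.22 and 7.2 in CC-M, and 6.54, 6.88 and 6.94 in VISUAL. All induced arrays lay above all VISUAL arrays, though the lowest CC-S array, at 6.98, was close to the highest VISUAL array, at 6.94. The difference from VISUAL was 0.27 in CC-S (adjusted p = 0.163) and 0.38 in CC-M (adjusted p = 0.0731, 95% interval 0.115 to 0.64), neither past the threshold. The third family member with a known glucosinolate role, NPF2.9, has no value here.

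NPF6.2 (NRT1.4, AT2G26690) is a low-affinity nitrate transporter of the leaf petiole that keeps nitrate stored there. Its log2 signal was 10.74, 11.18 and 10.94 in CC-S, 10.60, 11.00 and 10.77 in CC-M, and 8.88, 9.17 and 8.66 in VISUAL. Both inductions stood well clear of VISUAL and overlapped each other. NPF6.2 rose by 2.05 ± 0.16 (SE) in CC-S, or 4.14-fold (adjusted p = 9.91e-05), and by 1.88 in CC-M, or 3.69-fold (adjusted p = 0.000291). Between CC-S and CC-M it differed by 0.16 (95% interval -0.20 to 0.53, adjusted p = 0.761), so a difference larger than about 0.53 is outside the interval.

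NPF6.1 (AT5G13400) had another order of groups. It stood at 5.77, 5.74 and 5.69 in CC-S, 6.32, 6.50 and 6.23 in CC-M, and 5.40, 5.86 and 5.66 in VISUAL. The CC-M arrays were above all others, and CC-S and VISUAL overlapped. It rose by 0.71 ± 0.13 (SE) in CC-M over VISUAL (1.63-fold, adjusted p = 0.0110), while the CC-S difference was 0.09 (adjusted p = 0.711). NPF6.4 (NRT1.3, AT3G21670) was dim, and 7 of its 9 arrays carried one identical value of 2.52, so it gives no information on a change.

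**Figure D2:**
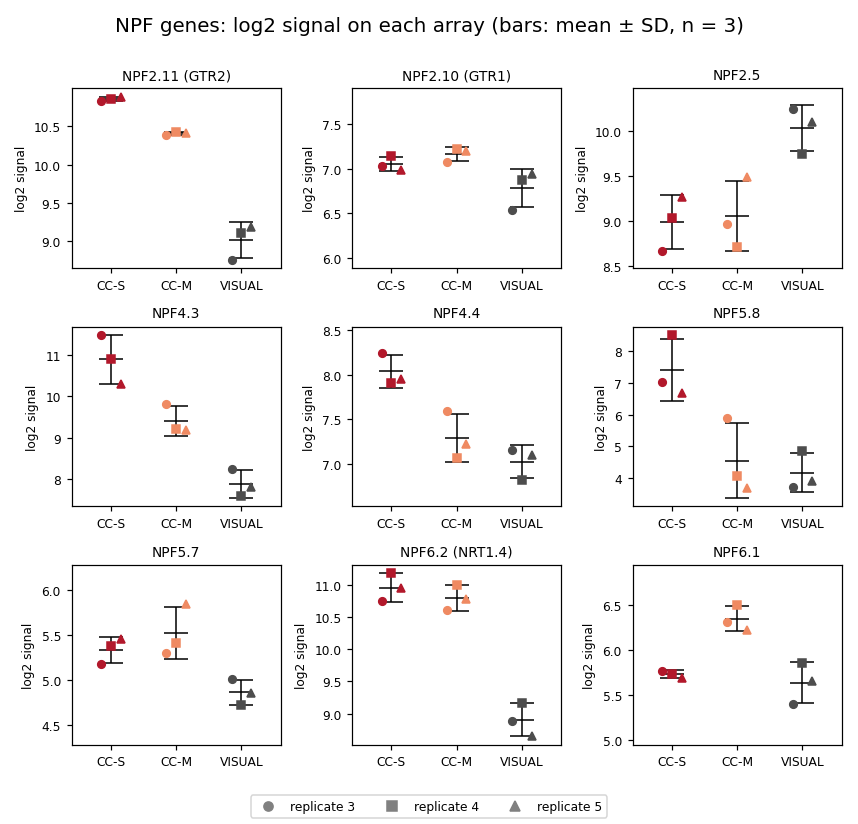
Log2 signal of NPF genes on each array, one panel a gene, with CC-S left, CC-M in the middle and VISUAL right. Points are arrays, with a shape for each replicate number, and bars are the mean ± SD (n = 3). GTR2 and NPF6.2 stand apart from VISUAL in both inductions, NPF4.3 forms 3 steps, and NPF2.5 is higher in VISUAL.

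Several NPF4 proteins import abscisic acid or gibberellin in yeast assays. NPF4.3 (AT1G59740) stood at 11.49, 10.92 and 10.30 in CC-S, 9.82, 9.21 and 9.18 in CC-M, and 8.25, 7.57 and 7.80 in VISUAL. The 3 groups formed separate steps, and replicate 3 was the highest array of each. NPF4.3 rose by 3.03 ± 0.31 (SE) in CC-S (8.17-fold, adjusted p = 0.000332) and by 1.53 in CC-M (2.89-fold, adjusted p = 0.0155). The CC-M call was lost without CC-M replicate 3 (adjusted p = 0.0549) or VISUAL replicate 5 (adjusted p = 0.0532).

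NPF4.4 (NRT1.13, AT1G33440) is a family member linked to nitrate-dependent flowering and branching. It stood at 8.24, 7.91 and 7.95 in CC-S, 7.59, 7.07 and 7.22 in CC-M, and 7.16, 6.82 and 7.10 in VISUAL. The CC-S arrays were above all others, and CC-M overlapped VISUAL. It rose by 1.01 ± 0.16 (SE) in CC-S (2.01-fold, adjusted p = 0.00271), and its CC-M difference was 0.27 (adjusted p = 0.369). The hormone importers NPF4.1, NPF4.2 and NPF4.5, with NPF4.7, differed from VISUAL by -0.28 to 0.07 in CC-S and by -0.18 to 0.30 in CC-M, none past the test. Of these, NPF4.1 and NPF4.2 lay among the dimmest 40% of probe sets, where calls were rare.

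NPF5 is the largest subfamily. Of its 14 measured members 1 was called in CC-S over VISUAL and 1 in CC-M over VISUAL, beside 20.2% and 12.0% of all genes. The other 12 were called in no comparison. NPF5.8 (AT5G14940) has been reported in Arabidopsis to move nicotianamine, a metal chelator that carries iron and copper. It stood at 7.02, 8.52 and 6.67 in CC-S, 5.90, 4.05 and 3.70 in CC-M, and 3.73, 4.87 and 3.91 in VISUAL. The CC-S arrays were above all others, CC-M overlapped VISUAL, and the spread within groups was wide (SD 0.98, 1.18 and 0.61). It rose by 3.24 ± 0.66 (SE) in CC-S (9.42-fold, adjusted p = 0.00899), and the CC-M difference was 0.38 (adjusted p = 0.794).

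NPF5.7 (AT3G53960) stood at 5.18, 5.38 and 5.45 in CC-S, 5.30, 5.41 and 5.85 in CC-M, and 5.01, 4.72 and 4.85 in VISUAL. All induced arrays lay above all VISUAL arrays. It rose by 0.66 ± 0.16 (SE) in CC-M (adjusted p = 0.0345) and its CC-S difference was 0.47 (adjusted p = 0.0820). The CC-S difference passed without CC-M replicate 5 (adjusted p = 0.0444). Between CC-S and CC-M it differed by -0.19 (adjusted p = 0.731). The CC-M call was lost in 9 of 19 other settings, up to an adjusted p of 0.0909, 6 of which left out an array: CC-S replicate 4, CC-M replicate 4 or 5, or any VISUAL replicate.

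Among NPF5 members that were not called, NPF5.14 (AT1G72120) had the lowest value in CC-S minus CC-M, at -1.05. It stood at 7.73, 8.14 and 8.34 in CC-S, 8.77, 9.43 and 9.16 in CC-M, and 8.32, 9.30 and 8.81 in VISUAL. The CC-S arrays lay below all CC-M arrays and overlapped VISUAL by one array, and the CC-S minus VISUAL difference was -0.74 (adjusted p = 0.0947). Without VISUAL replicate 3 that adjusted p was 0.0358. NPF5.15 differed by 0.61 in CC-S (adjusted p = 0.0947) and 0.67 in CC-M (adjusted p = 0.0898) over VISUAL, and passed the test in both without VISUAL replicate 5 (adjusted p = 0.0249 and 0.0316). Of the vacuolar nitrate exporters NPF5.11, NPF5.12 and NPF5.16, NPF5.11 differed by 0.45 in CC-M (adjusted p = 0.160), which passed without CC-M replicate 3 (adjusted p = 0.0277). NPF5.10, which was not dim, had all induced arrays above all VISUAL arrays. It differed by 0.26 in CC-S (adjusted p = 0.0609) and 0.26 in CC-M (adjusted p = 0.0830). The CC-S difference passed without the dimmest 40% of probe sets (adjusted p = 0.0453).

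In the gene order of TAIR10.1, 7 NPF2 genes lie close together on chromosome 3 (NPF2.7, NPF2.6, NPF2.3, NPF2.2, NPF2.4, NPF2.5 and NPF2.1), each within 3 genes of the next, and all were measured. Several of them are known from roots: NPF2.7 excretes nitrate, NPF2.3 and NPF2.4 load nitrate and chloride into the xylem, and NPF2.5 is linked to chloride efflux. NPF2.5 (AT3G45710) stood at 8.67, 9.04 and 9.26 in CC-S, 8.97, 8.72 and 9.49 in CC-M, and 10.25, 9.75 and 10.10 in VISUAL.

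The induced arrays were all below the VISUAL arrays, and CC-S and CC-M overlapped. NPF2.5 fell by 1.04 in CC-S (SE 0.22, adjusted p = 0.0118) and by 0.98 in CC-M (adjusted p = 0.0253). The CC-M call was lost without CC-M replicate 3 (adjusted p = 0.0821), CC-M replicate 4 (0.0871), VISUAL replicate 3 (0.0839) or VISUAL replicate 5 (0.0797). Of the other 6 genes in the row none was called, where 20.2% of all genes were called in CC-S and 12.0% in CC-M. NPF2.1, NPF2.2, NPF2.3 and NPF2.6 lay among the dimmest 40% of probe sets, and NPF2.4 just above them. In that dim range 4.01% of all genes were called in CC-S over VISUAL and 2.03% in CC-M over VISUAL. A missing call therefore says little about these dim neighbours. NPF2.7 differed by -0.63 in CC-S (adjusted p = 0.131) and by -0.55 in CC-M (adjusted p = 0.227), and the remaining 5 by -0.13 to 0.15 in CC-S and by -0.11 to 0.29 in CC-M. How far probes of these neighbours read each other's transcripts was not analysed here.

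**Figure D3:**
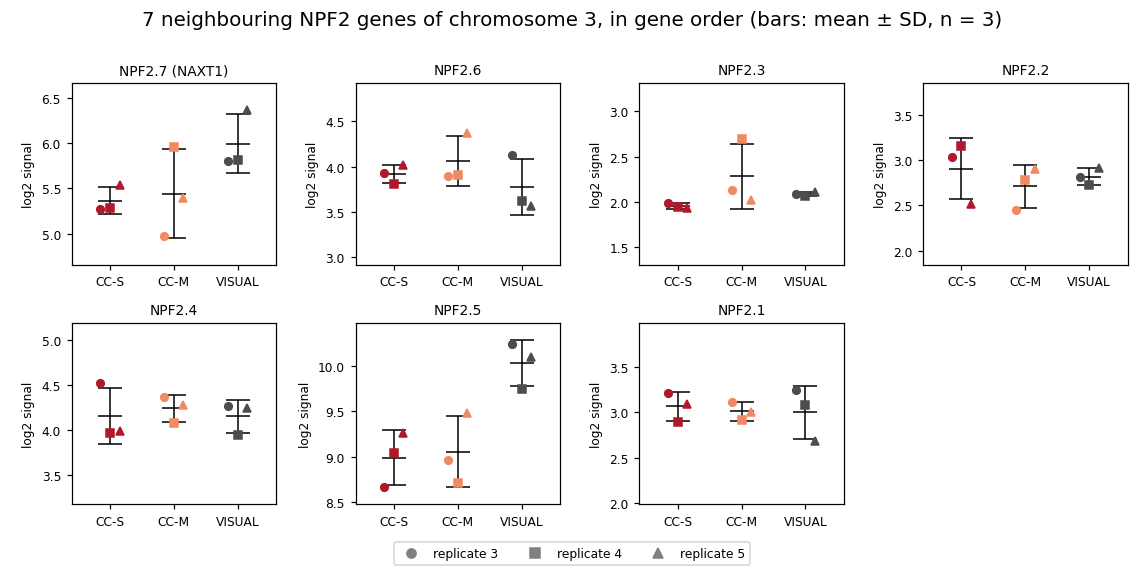
Log2 signal on each array for the 7 neighbouring NPF2 genes of chromosome 3, one panel a gene, with CC-S left, CC-M in the middle and VISUAL right, and bars at the mean ± SD (n = 3). NPF2.5 is the gene whose VISUAL arrays, at 9.75 to 10.25, all lie above the induced arrays by a margin that passed the test. NPF2.1, NPF2.2, NPF2.3 and NPF2.6 are among the dimmest 40% of probe sets, where calls are rare.

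One array decided the result for NPF3.1 (AT1G68570), a gibberellin importer of roots. It stood at 5.07, 5.34 and 5.19 in CC-S, 5.56, 5.39 and 5.21 in CC-M, and 4.28, 5.60 and 4.27 in VISUAL, where replicate 4 was far above the other two. With all arrays it differed by 0.48 in CC-S (adjusted p = 0.386) and 0.67 in CC-M (adjusted p = 0.262). Without VISUAL replicate 4 these were 0.93 (adjusted p = 0.00487) and 1.11 (adjusted p = 0.00366). Its second probe set gave differences of -0.04 and 0.07, so the probe sets of this gene disagree.

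Between strong and moderate induction no NPF gene was called, against 0.0208% of all probe sets (8 of 38408) and 0.0181% of all genes. At an unadjusted p under 0.05 there were 10 of 36 members, or 27.8%, against 12.1% of all genes. The groups did not overlap for 10 members, 5 higher and 5 lower in CC-S, or 27.8% against 18.2% of all genes (9.55% higher and 8.7% lower). Of the members whose groups did not overlap, differences included NPF5.8 (2.85, 95% interval 1.36 to 4.35, adjusted p = 0.115), NPF4.3 (1.50, interval 0.79 to 2.21, adjusted p = 0.0918), NPF5.14 (-1.05, adjusted p = 0.141), NPF4.4 (0.74, interval 0.38 to 1.10, adjusted p = 0.103), NPF6.1 (interval -0.92 to -0.31, adjusted p = 0.103) and GTR2 (0.45, interval 0.22 to 0.69, adjusted p = 0.115). NPF4.3 passed the test without CC-S replicate 5, at a difference of 1.80 and an adjusted p of 0.0428.

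The CC-M mean lay between CC-S and VISUAL for 13 of 36 members, or 36.1%, against 49.9% of all genes, and above both for 18, against 24.0% of all genes. Of the 8 members called in any comparison, 6 had CC-M in between, but the calls and the order rest on the same values. The same share among all called genes was not analysed here, so no graded response is read from this count. The order of groups in members without a call was not tested.

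No dim member was called. Of the 36 members, 16 lay among the dimmest 40% of probe sets, or 44.4% against 41.7% of all genes, and 0 of these were called in any comparison. Among all genes in that dim range, 4.01% were called in CC-S over VISUAL, against 31.8% of brighter genes, and in CC-M over VISUAL 2.03%, against 19.1%. On 13 members the same value appeared on 2 or more arrays. The 28 members called in no comparison ranged over 0.22 to 1.73 across the 9 arrays, with a median of 0.76, and they include NPF2.8, NPF2.14, NPF5.1, NPF5.3 to NPF5.6, NPF5.10, NPF5.13 and NPF7.1.

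**Figure D4:**
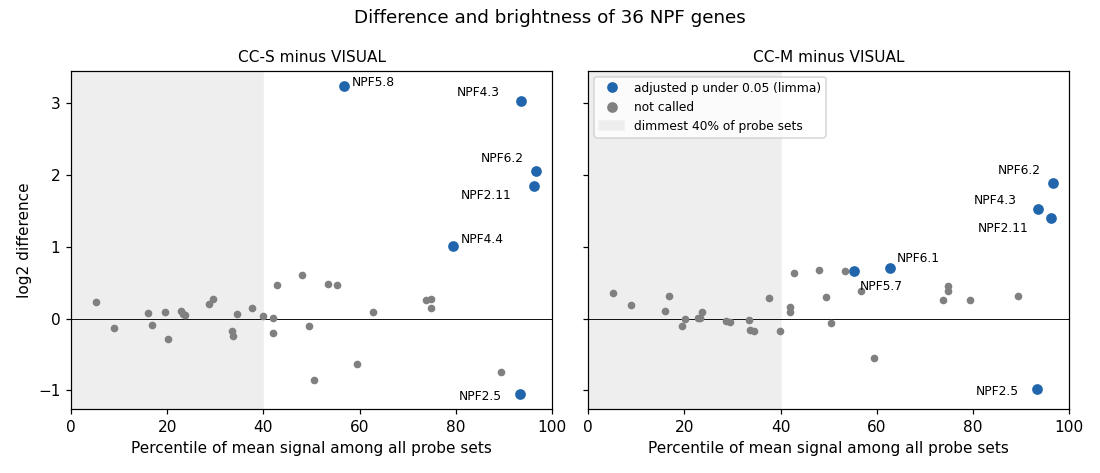
Log2 difference of each of the 36 NPF genes against the percentile of its mean signal among all probe sets, with a panel each for CC-S minus VISUAL and CC-M minus VISUAL, grey shading over the dimmest 40% of probe sets, and colour for genes called at an adjusted p under 0.05 (limma). The called genes lie above the dimmest 40%.

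Other genes of nitrate, glucosinolate and hormone handling were thinly covered, for the reason given for the family. Of 52 nitrate uptake, assimilation and signalling genes 5 were measured, and 2 rose in both inductions with none lower, where 10.2% of all genes were called higher in CC-S and 6.31% in CC-M. NRT2.5, a high-affinity nitrate transporter gene, was higher by 1.29 in CC-S (adjusted p = 0.00243) and 1.13 in CC-M (adjusted p = 0.00827). NRG2, a regulator of nitrate signalling, was higher by 0.53 (adjusted p = 0.0107) and 0.50 (adjusted p = 0.0219) in CC-S and CC-M. Its CC-M call was lost without CC-M replicate 3 (0.056) or VISUAL replicate 5 (0.0732), or with only the 6 arrays compared (0.0556). The median of the 5 was 0.02 in CC-S and 0.13 in CC-M.

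Of 53 glucosinolate genes 5 were measured, with 1 higher and 1 lower in each induction, against 10.2% of all genes higher and 10.0% lower in CC-S and 6.31% higher and 5.66% lower in CC-M. UGT74B1, which adds the glucose of the glucosinolate core, was higher by 1.12 in CC-S (adjusted p = 0.0046) and 1.4 in CC-M (adjusted p = 0.00296). BGLU28, a beta-glucosidase gene, fell by 4.1 in CC-S (adjusted p = 0.000642) and differed by -2.25 in CC-M (adjusted p = 0.0193), a call that was lost without any one CC-M replicate or without VISUAL replicate 3 or 5 (adjusted p up to 0.0652). Its CC-S minus CC-M difference was -1.85 (adjusted p = 0.147), and it passed without CC-S replicate 5 (-2.51, adjusted p = 0.00986) and with array weights (-2.05, adjusted p = 0.0445). Of 9 hormone transporter genes outside the family 3 were measured, and 1 rose in each induction, beside the same shares of all genes: DTX50, an abscisic acid exporter, by 2.64 in CC-S (6.23-fold, adjusted p = 4.05e-05) and 2.18 in CC-M (adjusted p = 0.000201). None of the 9 oligopeptide transporter genes was measured, and apart from BGLU28 under those settings no measured gene of these lists passed in CC-S against CC-M.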

How the data were processed

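Per the submitters' processing notes, the authors used Affymetrix Expression Console to turn one-colour array scans into the deposited log2 signals; the sources used here do not name its version, summary method or normalization. The 38408 deposited probe sets carry no detection call. Array medians were 4.71 to 4.90 and 0 pairs of arrays were identical, so the values were used as they are.

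Probe sets were named through the platform annotation, updated by gene number to the TAIR10.1 gene table. That annotation lists few genes that have their own symbol, which skews the measured members, the lists and the gene background alike. For the total calls of each comparison, shares of all probe sets are therefore given too. All other background shares rest on the measured genes alone and carry this skew. NPF numbers follow the family's published nomenclature, and the reference table carries them for 27 of 52 loci. Members and lists were chosen with earlier results of these data known.

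All 9 arrays entered one limma 3.58.1 fit (under R 4.3.3, eBayes with its trend on mean signal, 6 residual degrees of freedom), with Benjamini-Hochberg adjustment over all probe sets, called at 0.05. Values on all arrays are given for every called member and for the glucosinolate importers. Members singled out beyond that rule (NPF3.1, NPF5.10, NPF5.14, NPF5.15, NPF5.11 and NPF2.7) were chosen after their values were seen. The fit was tested on simulated data, and 19 alternative settings were run. The number of arrays limits the precision.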

Additional observations from a re-analysis of the deposited data

How the results depend on the processing

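The count of NPF genes called in CC-S over VISUAL stayed between 6 and 7 in all 19 other settings, and in CC-M over VISUAL between 4 and 7 (6 to 7 and 4 to 6 with one array left out). In CC-S against CC-M the count of 0 became 5 with array weights (4 higher and 1 lower), 1 with only single-gene probe sets tested, and 0 to 1 with one array left out, the 1 coming without CC-S replicate 5. No called difference changed sign. Of 66 gene differences followed, 19 that were not called took the other sign in at least 1 setting, the largest being NPF5.8 in CC-M over VISUAL (0.38, and -0.29 without CC-M replicate 3). With array weights the adjusted p was 0.0314 for NPF4.3, 0.0438 for NPF4.4, 0.0433 for NPF5.8, 0.0415 for GTR2 and 0.0411 for NPF6.1. GTR1 passed in CC-M over VISUAL without the dimmest 40% of probe sets (adjusted p = 0.0476). Over all probe sets, the 8 calls in CC-S against CC-M became 309 without CC-S replicate 5, 847 with array weights, 310 without the dimmest 40%, 179 with single-gene probe sets, 42 with quantile normalization and 38 with median centring. The 4470 calls in CC-M over VISUAL became 2735, 2450 and 2940 without CC-M replicate 3, 4 and 5, and 2932 without VISUAL replicate 5. The cause was not tested.

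Arrays with the same replicate number deviated together weakly if at all (r of -0.033 to 0.121, over 0.1 in 2 of 9 pairs). For 6 of 9 arrays the closest array of another group had the same number. Whether the numbers pair the samples cannot be told from these values, and no label says so. With the replicate block the counts were 7, 6 and 0, and NPF5.14 passed in CC-S against VISUAL (adjusted p = 0.0103).

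One limit is which genes have a value: 16 of 52 members, among them the best studied nitrate and peptide transporters, were not analysed here. The files give no detection calls, so signal over background is unknown for the dim members.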
